A study of Bos taurus with 90 samples.

Results

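Liver transcriptomes of Holstein-Friesian (HF) steers were compared between zero-grazed grass (ZG) and the first high-concentrate phase (H1). HF libraries were taken by the breed label and split by the diet label, which gave 34 of the 90 libraries in the series, 18 from ZG and 16 from H1. Both diets held steers with low and with high residual feed intake (RFI), the gap between the feed an animal eats and the intake predicted from its size and growth: 10 low RFI and 8 high RFI steers on ZG, and 7 low RFI and 9 high RFI steers on H1. Low and high RFI steers were pooled, with RFI group as a covariate in the test.

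The series holds liver punch biopsies of Charolais (CH) and HF steers taken at the end of 3 successive feeding phases, H1, ZG and a second high-concentrate phase (H2), to find genes linked to feed efficiency. The H1 diet was mainly rolled barley, with soya bean meal, molasses, minerals and vitamins, offered ad libitum together with a restricted allowance of grass silage. The ZG diet was fresh grass, mostly perennial ryegrass, cut and carried to the steers ad libitum. H2 repeated the H1 ration in older, finishing steers. All steers passed through H1 before ZG, with a grass silage period in between, so that diet, age and season cannot be told apart in this comparison, and the labels give no age at biopsy. By animal number, the 34 libraries came from 31 steers, because 3 steers were sequenced in both phases. Each library is a piece of whole liver from 1 steer.

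In ruminants, starch and fibre are fermented in the rumen to volatile fatty acids, and the liver makes glucose chiefly from propionate. A barley ration raises the supply of propionate and energy, whereas fresh leafy grass is rich in degradable protein and in plant compounds that the liver oxidises and conjugates. Liver genes for xenobiotic metabolism, haem synthesis, methyl-group and amino acid metabolism and bile acid signalling are known to respond to what the gut delivers.

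The total count per library was 9097695 to 47640205 on H1 and 11696079 to 63621304 on ZG. Of the 34 libraries, 4 from ZG stood apart from the others, those of high RFI steers 1798, 2069 and 2242 and of low RFI steer 5635. Their scores on the first principal component, which held 45.5% of the variance, were above those of every other library, and their normalisation (TMM) factors were the lowest of all. TMM factors were 1.04 to 1.33 on H1 and 0.730 to 1.10 on ZG, or 0.815 to 1.10 on ZG without these 4 libraries. The share of counts taken by the 20 most counted genes was 28.0 to 36.0% on H1 and 30.3 to 45.1% on ZG. Library composition thus moved with diet, and its part in the gene results was not tested. The comparison of ZG and H1 and both interactions were therefore also computed without the 4 libraries.

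**Figure D1:**
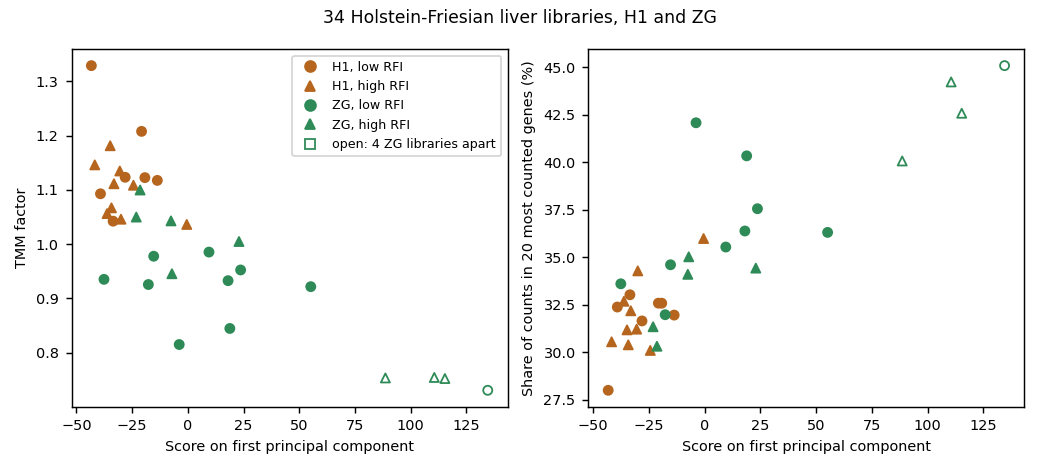
TMM factor (left) and percentage of counts in the 20 most counted genes (right) of the 34 HF libraries, against the score on the first principal component. Circles are low RFI and triangles high RFI steers, brown is H1 and green ZG, and the 4 open symbols at the right are the ZG libraries with TMM factors below 0.815, the lowest of the other 14 ZG libraries.

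Of 13261 genes tested, 7524 (56.7%) differed between ZG and H1 at an adjusted p under 0.1 in edgeR's quasi-likelihood test. On ZG, 3977 genes (30.0%) were upregulated and 3547 (26.7%) downregulated. The median log2 fold change was 0.39 among upregulated and -0.59 among downregulated genes, and 0.015 over all genes tested. Large falls outnumbered large rises, with 403 genes downregulated by more than 1 on the log2 scale and 56 upregulated by more than 1. The level of a gene in a bulk biopsy does not tell fewer cells of a type from less RNA per cell.

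Without the 4 libraries, 4744 of 13412 genes (35.4%) passed, 2103 higher and 2641 lower on ZG. With the same direction, 4495 genes passed both ways, while 3029 of the 7524 genes were not called without the 4 libraries. The balance of directions rested on the scaling. When libraries were scaled to the total count alone, 7517 genes passed, of which 803 were higher and 6714 lower, and the median log2 fold change over all genes was -0.28. Changes are given relative to the TMM scaling in what follows, and genes that turn under total count scaling are named. Only 12 genes (0.0905% of those tested) had levels that did not overlap between the 18 ZG and the 16 H1 libraries, 9 of them higher and 3 lower on ZG, and none of the 12 has a name in the sources used here.

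Names were available for 328 of the 24616 identifiers, and 322 named genes were tested. They are genes that the study listed for an RFI difference in one of its comparisons, so they are not a random sample of the liver transcriptome, and none of the gluconeogenic, cholesterol and fatty acid oxidation genes examined is among them. Of the 322, 196 differed between the diets, 69 higher and 127 lower on ZG, against 56.7% of all genes tested, and 138 of them passed in the same direction without the 4 libraries. No hepatocyte marker gene was among the named genes, so the liver label could not be checked against such markers. The adipocyte marker CIDEC, a lipid droplet protein, was at 0.341 to 30.2 CPM (counts scaled to library size) on H1 and 0.156 to 3.04 CPM on ZG, with the value of 30.2 CPM from steer 2065. Of the genes described below, 52 passed the test, 27 higher and 25 lower on ZG. All 25 lower genes also passed with total count scaling, against 17 of the 27 higher genes.

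**Figure D2:**
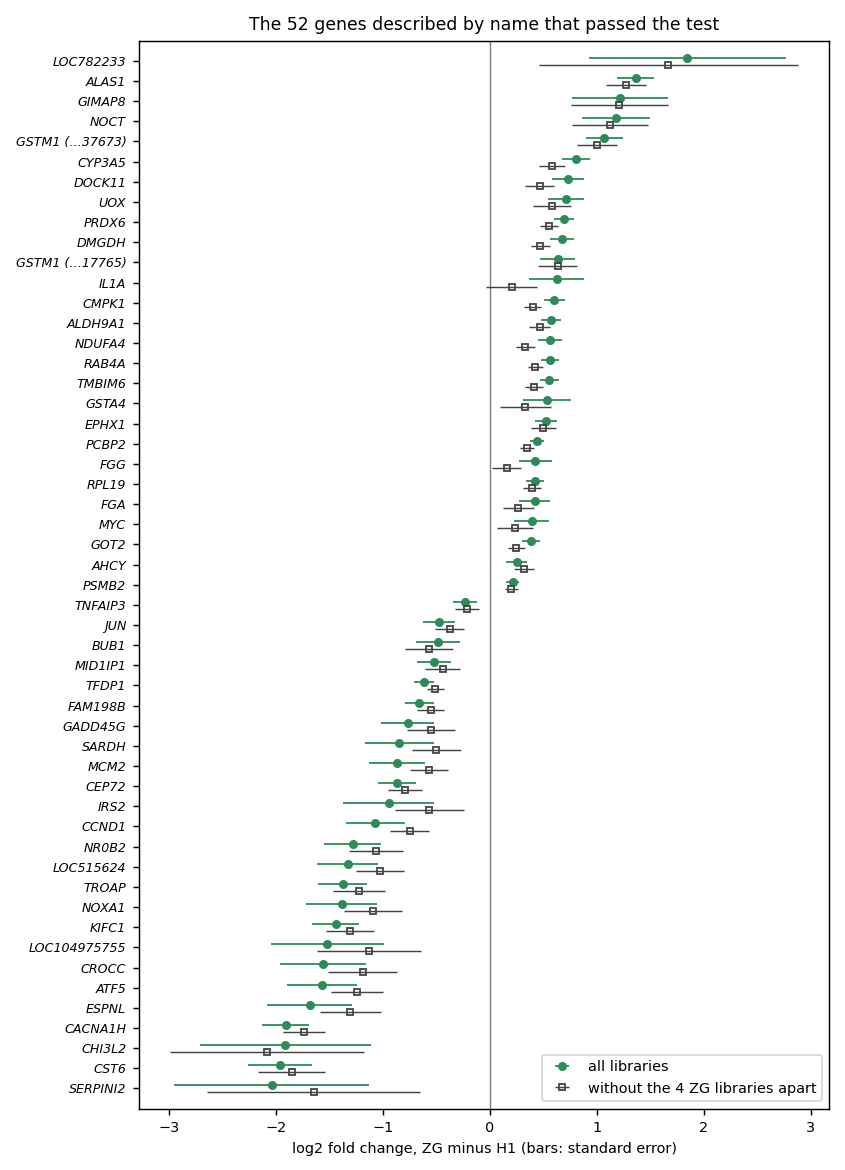
log2 fold change on ZG relative to H1, with standard error bars, of the 52 named genes that passed the test, for all 34 libraries (filled circles) and without the 4 ZG libraries (open squares). Each gene keeps its side of 0, with ALAS1 at 1.36 and 1.27 and CACNA1H at -1.91 and -1.74. With total count scaling AHCY and PSMB2 fall on the other side of 0.

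ALAS1 and both tested genes of the xenobiotic list, CYP3A5 and EPHX1, were higher on ZG, as were 30.0% of all genes tested. ALAS1 (ENSBTAG00000004118), the rate-limiting enzyme of haem synthesis in liver, ranged from 99.1 to 262 CPM on H1 (median 175) and from 171 to 967 CPM on ZG (median 399). Of the 18 ZG libraries, 14 lay above every H1 library. The log2 fold change was 1.36 (SE 0.17, edgeR adjusted p = 2.82e-06), and 1.27 (SE 0.19, adjusted p = 3.07e-05) without the 4 libraries. Median ALAS1 levels were 119 CPM in low and 179 CPM in high RFI steers on H1, and 285 and 590 CPM on ZG.

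CYP3A5 (ENSBTAG00000012201), a cytochrome P450 that oxidises drugs and plant compounds, was at 299.8 to 517 CPM on H1 (median 387) and 308 to 1110 CPM on ZG (median 739). ZG libraries lay above all H1 libraries in 15 of 18 cases, and the log2 fold change was 0.80 (SE 0.13, edgeR adjusted p = 3.02e-05), or 0.58 (SE 0.12) without the 4 libraries. EPHX1, the microsomal epoxide hydrolase that works on the products of such enzymes, had a median of 999 CPM on H1 and 1439 CPM on ZG, a rise of 0.53 in log2 (SE 0.10, adjusted p = 0.000236). These were the only genes of the xenobiotic list that had a name, and both were called higher with each of the 3 scalings used.

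Among glutathione and antioxidant genes, 3 of the 4 identifiers tested were higher on ZG, against 30.0% of all genes, and none lower. Without the 4 libraries, and with total count scaling, 2 of the 4 were higher, against 2103 of 13412 and 803 of 13261 genes in turn. GSTM1, a glutathione S-transferase of the mu class, is the name of 2 identifiers, between which reads of near-identical copies may have been split. The first (ENSBTAG00000037673) was at 59.4 to 330 CPM on H1 and 181 to 529 CPM on ZG, with a log2 fold change of 1.07 (SE 0.17, edgeR adjusted p = 2.99e-05). Its levels overlapped, but 12 ZG libraries exceeded all H1 libraries and 10 H1 libraries lay below all ZG libraries. The second (ENSBTAG00000017765) rose by 0.63 (SE 0.16, adjusted p = 0.00274), but was not called in high RFI steers alone (edgeR adjusted p = 0.549). Its medians were 109 CPM in low and 252 CPM in high RFI steers on H1, and 296 and 284 CPM on ZG. GSTA4, which conjugates the products of lipid peroxidation, was called at 0.53 (SE 0.22, adjusted p = 0.0475) but not without the 4 libraries (0.33, SE 0.24, adjusted p = 0.321).

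PRDX6 (ENSBTAG00000004855), a peroxiredoxin that reduces hydroperoxides of phospholipids, ranged from 95.6 to 201 CPM on H1 (median 159) and from 183 to 354 CPM on ZG (median 247). Of the ZG libraries, 16 exceeded every H1 library. The log2 fold change was 0.69 (SE 0.09, edgeR adjusted p = 2.85e-06), and 0.55 (SE 0.08) without the 4 libraries.

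**Figure D3:**
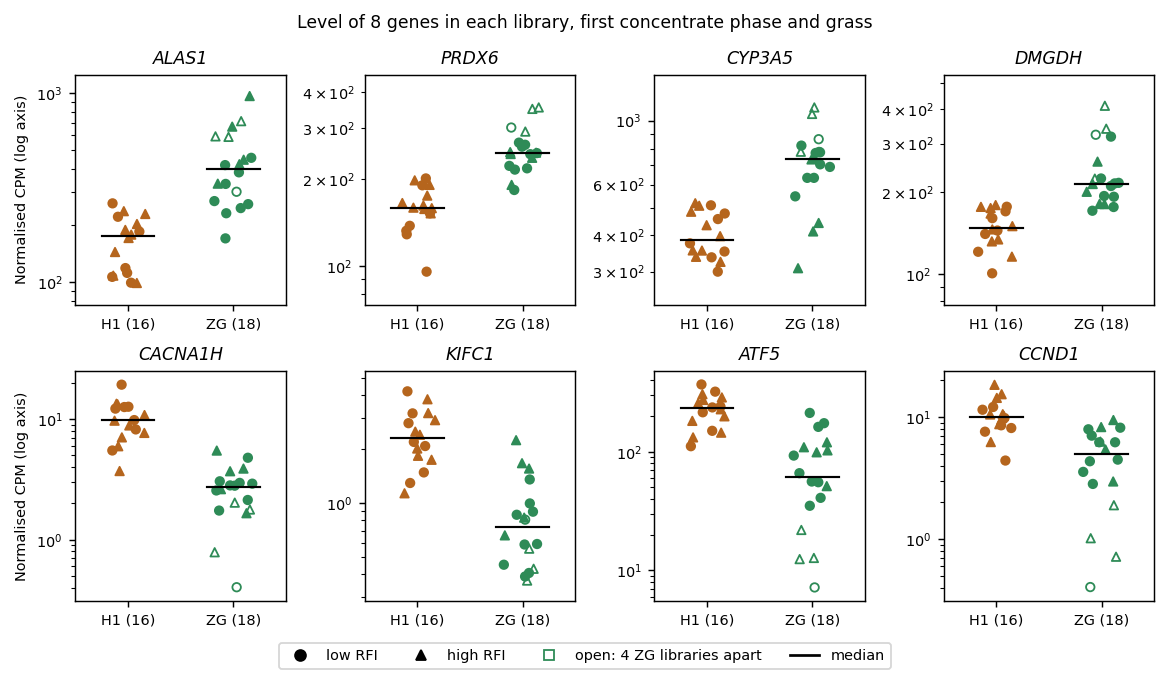
Normalised CPM (log axis) of 8 genes in the 16 H1 and 18 ZG libraries of HF steers. Circles are low RFI, triangles high RFI, open symbols the 4 ZG libraries that stand apart, and the horizontal line is the median: ALAS1, PRDX6, CYP3A5 and DMGDH are higher on ZG and CACNA1H, KIFC1, ATF5 and CCND1 lower, and for CCND1 the open symbols are the lowest ZG values.

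Of 5 genes tested for one-carbon metabolism, 2 were higher and 1 lower on ZG, against 30.0% and 26.7% of all genes. DMGDH (ENSBTAG00000002110), which turns dimethylglycine from choline and betaine into sarcosine in mitochondria, was at 101 to 179 CPM on H1 (median 148) and 171 to 412 CPM on ZG (median 214). Only 2 ZG libraries fell within the H1 range, and the log2 fold change was 0.67 (SE 0.11, edgeR adjusted p = 4.13e-05), or 0.47 (SE 0.09) without the 4 libraries. SARDH, the enzyme of the following step, from sarcosine to glycine, had a median of 72.1 CPM on H1 (35.9 to 123) and 34.3 CPM on ZG (4.52 to 89.8). On the log2 scale SARDH fell by 0.85 (SE 0.32, adjusted p = 0.0321), but the value was -0.50 (SE 0.23, adjusted p = 0.104) without the 4 libraries. AHCY, which hydrolyses S-adenosylhomocysteine, was called at 0.25 (SE 0.10, adjusted p = 0.0364), and the value was -0.03 with total count scaling (adjusted p = 0.861).

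ALDH9A1, CMPK1, GOT2 and UOX were upregulated on ZG. ALDH9A1, an aldehyde dehydrogenase used in carnitine synthesis, rose from a median of 552 to 845 CPM, by 0.57 on the log2 scale (SE 0.09, edgeR adjusted p = 3.36e-05), with 13 ZG libraries above all H1 libraries. CMPK1, the kinase of UMP and CMP, rose by 0.60 (SE 0.10), and GOT2, the mitochondrial aspartate aminotransferase, by 0.39 (SE 0.09). UOX, urate oxidase, the last step of purine breakdown in most mammals, was at 39.2 to 112 CPM on H1 (median 68.9) and 46.7 to 222 CPM on ZG (median 104), and 7 ZG libraries exceeded all H1 libraries. UOX was upregulated by 0.72 (SE 0.17, adjusted p = 0.00118), or 0.58 (SE 0.18, adjusted p = 0.015) without the 4 libraries. Without the 4 libraries CMPK1 stood at 0.40 and GOT2 at 0.25. GOT2 was the 1 gene called of the 3 tested from the urea cycle and amino acid list. With total count scaling ALDH9A1 stood at 0.26, CMPK1 at 0.28 and GOT2 at 0.08 (adjusted p = 0.298).

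Genes of lipid, bile acid and insulin signalling with a name were few, and those that passed were lower on ZG. NR0B2 (ENSBTAG00000014848), the nuclear receptor SHP that represses bile acid synthesis, ranged from 2.66 to 16.4 CPM on H1 (median 8.38) and from 0.779 to 11.9 CPM on ZG (median 3.45). The diets overlapped over most of that range, with 5 ZG libraries below all H1 libraries, and the log2 fold change was -1.28 (SE 0.27, edgeR adjusted p = 0.000465), or -1.06 (SE 0.25) without the 4 libraries. MID1IP1, which promotes the polymerisation and activity of acetyl-CoA carboxylase, fell from a median of 35.4 to 26.0 CPM (-0.52, SE 0.16, adjusted p = 0.00753). Without the 4 libraries MID1IP1 stood at -0.44 (edgeR adjusted p = 0.0467), and it was not called in low RFI steers alone. IRS2, an adaptor of the insulin receptor, was called at -0.95 (SE 0.43, adjusted p = 0.0644) and not called without the 4 libraries (-0.57, SE 0.32, adjusted p = 0.198).

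Of the lipoprotein genes only APOC3, an apolipoprotein that slows triglyceride clearance, had a name, and its log2 fold change was 0.21 (SE 0.16, edgeR adjusted p = 0.257), or 0.38 (SE 0.14, adjusted p = 0.0387) without the 4 libraries, and -0.04 with total count scaling. PPP1R3C, a glycogen-targeting subunit of protein phosphatase 1, had a median of 254 CPM on H1 and 223 CPM on ZG with a log2 fold change of 0.07 (SE 0.15), and its direction depended on the scaling (-0.24 with total counts). Of the 2 genes tested for glucose and glycogen metabolism, neither passed.

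All 4 cell cycle genes with a name, CCND1, MCM2, BUB1 and BUB1B, were called lower on ZG, with and without the 4 libraries. Of all genes tested 26.7% were lower, and of the 322 named genes 127. The median log2 fold change of the 4 cell cycle genes was -0.68, against 0.015 over all genes and -0.27 over the named genes. CCND1 (ENSBTAG00000017514), cyclin D1, which drives entry into S phase, was at 4.40 to 18.3 CPM on H1 (median 10.0) and 0.404 to 9.44 CPM on ZG (median 4.94). The change was -1.07 in log2 (SE 0.28, edgeR adjusted p = 0.00279), or -0.75 (SE 0.18) without the 4 libraries, and 8 ZG libraries lay below all H1 libraries. MCM2, a subunit of the replicative helicase, fell by 0.87 on the log2 scale (SE 0.26), with 14 ZG libraries below the lowest H1 library, and BUB1, a spindle checkpoint kinase, fell by 0.49 (SE 0.20, adjusted p = 0.0478). Without the 4 libraries MCM2 stood at -0.57. CCND1, MCM2 and BUB1 were not called in low RFI steers alone, and BUB1 was also not called in high RFI steers alone or with voom weights.

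KIFC1, TROAP, CEP72 and TFDP1 are not on the cell cycle list. They were named for being among the 10 smallest p of the named genes lower on ZG, so their direction was set by that choice. KIFC1 (ENSBTAG00000001631), a minus-end-directed kinesin that clusters centrosomes, was at 1.13 to 4.21 CPM on H1 (median 2.30) and 0.369 to 2.24 CPM on ZG (median 0.734), and 14 ZG libraries lay below all H1 libraries. The log2 fold change was -1.44 (SE 0.22, edgeR adjusted p = 2.04e-05), or -1.31 (SE 0.23) without the 4 libraries. TROAP, a spindle assembly protein, fell by 1.38 (SE 0.23) and CEP72, a centrosomal protein, by 0.87 (SE 0.17). TFDP1, the partner through which E2F factors bind DNA, fell from a median of 17.0 to 11.6 CPM, and 17 of 18 ZG libraries were below every H1 library (-0.62, SE 0.10, adjusted p = 2.04e-05).

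CROCC, which forms the ciliary rootlet, fell by 1.56 (SE 0.41), and ESPNL, an espin-like actin-binding protein, fell by 1.68 (SE 0.40). In both genes 14 ZG libraries lay below all H1 libraries, but the highest ZG library reached 21.1 CPM for CROCC and 17.6 CPM for ESPNL, against H1 medians of 13.4 and 14.9 CPM. The ZG libraries were thus spread over a wide range in these genes.

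CACNA1H (ENSBTAG00000026461), a T-type calcium channel subunit, had the smallest p of the named genes. It ranged from 3.71 to 19.3 CPM on H1 (median 9.76) and from 0.404 to 5.48 CPM on ZG (median 2.72), and 15 ZG libraries lay below all H1 libraries. The log2 fold change was -1.91 (SE 0.22, edgeR adjusted p = 1.43e-06), and -1.74 (SE 0.20) without the 4 libraries. CST6, the secreted protease inhibitor cystatin E/M, fell by 1.96 (SE 0.30, adjusted p = 1.38e-05), from 0.502 to 3.28 CPM on H1 to 0 to 0.586 CPM on ZG.

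ATF5 (ENSBTAG00000003457), a transcription factor of the integrated stress response that is abundant in liver, was at 111 to 369 CPM on H1 (median 232) and 7.19 to 212 CPM on ZG (median 61.0). The 4 libraries that stood apart gave its lowest values, since the other ZG libraries began at 35.1 CPM, and the log2 fold change was -1.57 (SE 0.33, edgeR adjusted p = 0.000411) with them and -1.24 (SE 0.24, adjusted p = 0.000473) without. ATF5 was the only gene of the 2 tested from the stress response list that passed. NOXA1, an activator of NADPH oxidase, fell by 1.38 (SE 0.33), FAM198B, a Golgi membrane protein, by 0.66 (SE 0.14), and LOC515624, a predicted gene, by 1.33 (SE 0.29). HSPA1A, the inducible heat shock protein HSP70, spread from 19.7 to 885 CPM on ZG and from 184 to 405 CPM on H1, with a log2 fold change of 0.01 (SE 0.34).

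Of 7 NF-kB feedback and immediate early genes, 2 were called higher and 3 lower on ZG, against 30.0% and 26.7% of all genes. With total count scaling none was higher and 4 were lower, against 803 higher and 6714 lower of all 13261 genes. JUN, a subunit of the AP-1 transcription factor, fell from a median of 16.9 to 12.2 CPM (-0.48, SE 0.15, edgeR adjusted p = 0.00971), and GADD45G, a growth arrest and stress sensor, from 8.73 to 5.40 CPM (-0.77, SE 0.25, adjusted p = 0.0127). TNFAIP3, the ubiquitin-editing enzyme A20, was called at -0.23 (SE 0.11, adjusted p = 0.0928). MYC, the growth-related transcription factor, was called at 0.39 (SE 0.16) and IL1A, the cytokine interleukin 1 alpha, at 0.63 (SE 0.26). Without the 4 libraries TNFAIP3 (-0.21, adjusted p = 0.174), MYC (0.24, adjusted p = 0.31) and IL1A (0.20, adjusted p = 0.555) were not called. JUN and GADD45G were not called in high RFI steers alone.

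Of 6 acute phase genes tested, 2 were called higher on ZG, against 30.0% of all genes. These were FGA and FGG, the alpha and gamma chains of fibrinogen, each at 0.42 on the log2 scale (SE 0.14 and 0.16). FGA ranged from 9290 to 18331 CPM on H1 and from 6952 to 29662 CPM on ZG, and the ZG range held the whole H1 range. Without the 4 libraries the values were 0.27 (edgeR adjusted p = 0.17) for FGA and 0.16 (adjusted p = 0.404) for FGG. C5, the complement protein that starts the membrane attack complex, had a median of 2416 CPM on H1 and 2345 CPM on ZG (0.04, SE 0.14), and coagulation factor F5 was at 825 and 965 CPM (0.23, SE 0.12). C5 and F5 did not pass, and both were below 0 with total count scaling (-0.30 and -0.08). C5 was called lower with that scaling (adjusted p = 0.0567), and FGA (0.10, adjusted p = 0.565) and FGG (0.08, adjusted p = 0.631) were not called. With total counts 0 of the 6 acute phase genes were higher and 2 lower, against 803 higher and 6714 lower of all 13261 genes.

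Genes of immune and mineral function had wide ranges within a diet. GIMAP8, a GTPase of lymphocytes, was at 12.5 to 125 CPM on H1 and 16.4 to 275 CPM on ZG, with medians of 25.6 and 31.7 CPM. It was called at 1.22 (SE 0.45, edgeR adjusted p = 0.0259), but not in low RFI steers alone. The GIMAP8 median was 30.8 CPM on H1 and 22.3 CPM on ZG in low RFI steers, and 24.1 and 77.8 CPM in high RFI steers. None of the T, NK or B cell markers examined had a name, so the part of lymphocytes in this result was not tested. DOCK11, an activator of the GTPase CDC42, rose by 0.73 (SE 0.15), or 0.47 without the 4 libraries. IFI44, an interferon-induced gene, did not pass (-0.12, SE 0.25), nor did SLC39A4, an intestinal type zinc importer (-0.45, SE 0.41), which was called with the steer as a block in limma-voom (-1.05, adjusted p = 0.0244).

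NOCT, nocturnin, a phosphatase of NADP(H) whose RNA cycles with the day in liver, was the 1 of 3 clock-related genes that passed. It ranged from 1.73 to 20.2 CPM on H1 (median 4.28) and from 1.51 to 55.0 CPM on ZG (median 8.45). The log2 fold change was 1.18 (SE 0.32, edgeR adjusted p = 0.00368), or 1.12 (SE 0.36, adjusted p = 0.0202) without the 4 libraries. The time of day of the biopsies is not given in the sources used here, and its part was not tested.

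PCBP2, RAB4A, TMBIM6, RPL19, NDUFA4 and PSMB2 were also called higher on ZG. PCBP2 (ENSBTAG00000020757), an RNA-binding protein of poly(C) tracts, was at 174 to 218 CPM on H1 and 207 to 350 CPM on ZG, and 17 of 18 ZG libraries lay above every H1 library (0.44, SE 0.07, edgeR adjusted p = 1.25e-05). RAB4A, a GTPase of endosomal recycling, rose by 0.56 (SE 0.08), with 16 ZG libraries above all H1 libraries, and TMBIM6, an endoplasmic reticulum protein that limits cell death, by 0.56 (SE 0.09). RPL19, a protein of the large ribosomal subunit, was called at 0.42 (SE 0.08), NDUFA4, a subunit of the respiratory chain, at 0.56 (SE 0.11), or 0.33 without the 4 libraries, and PSMB2, a proteasome subunit, at 0.21 (SE 0.06). RPL19 was 1 of 2 cytosolic ribosomal protein genes tested, and the other, RPL13, did not pass (-0.42, SE 0.22, adjusted p = 0.116). With total count scaling PCBP2 stood at 0.13, RAB4A and TMBIM6 at 0.25, NDUFA4 at 0.24, RPL19 at 0.12 and PSMB2 at -0.08. RPL19 and PSMB2 were not called there, and RPL13 was called lower.

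A few calls combined a large fold change with a high error. CHI3L2, a chitinase-like protein, was called at -1.91 (SE 0.80, edgeR adjusted p = 0.0477), with medians of 1.42 CPM on H1 and 0.993 CPM on ZG, and its highest H1 library, that of steer 5632, held 110 CPM. With the 3 repeated steers left out, the log2 fold change of CHI3L2 was 0.08. SERPINI2, a serine protease inhibitor made in pancreas, was at 0.0538 to 71.1 CPM on H1 and 0 to 30.9 CPM on ZG (-2.04, SE 0.91), and LOC782233 was at 0 to 7.02 CPM and 0 to 9.90 CPM (1.85, SE 0.92). SERPINI2 (-1.65, adjusted p = 0.228) and LOC782233 (1.67, adjusted p = 0.323) were not called without the 4 libraries. With the steer as a block in limma-voom, CHI3L2 (-1.10, adjusted p = 0.137) and LOC782233 (0.78, adjusted p = 0.531) were not called. LOC104975755 fell by 1.52 (SE 0.53), from a median of 2.11 to 0.186 CPM, and the adjusted p was 0.0807 without the 4 libraries.

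In the 3 steers sequenced in both phases, the change can be read within 1 animal. ALAS1 went from 108 to 456 CPM in steer 2065, from 238 to 712 CPM in steer 2069 and from 112 to 259 CPM in steer 5632. CACNA1H went from 5.96 to 3.05 CPM, from 9.70 to 2.03 CPM and from 19.3 to 2.56 CPM in the same order. KIFC1 fell in each of the 3 steers, to 0.407, 0.369 and 0.587 CPM, and so did ATF5, to 92.8, 12.7 and 35.1 CPM. PRDX6, in contrast, was at 191 and 183 CPM in steer 2065 and rose in the other steers, from 198 to 292 CPM and from 152 to 218 CPM. The ZG library of steer 2069 is 1 of the 4 that stood apart. Steer 2065 is labelled high RFI on H1 and low RFI on ZG, so that its pair differs in RFI group as well.

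**Figure D4:**
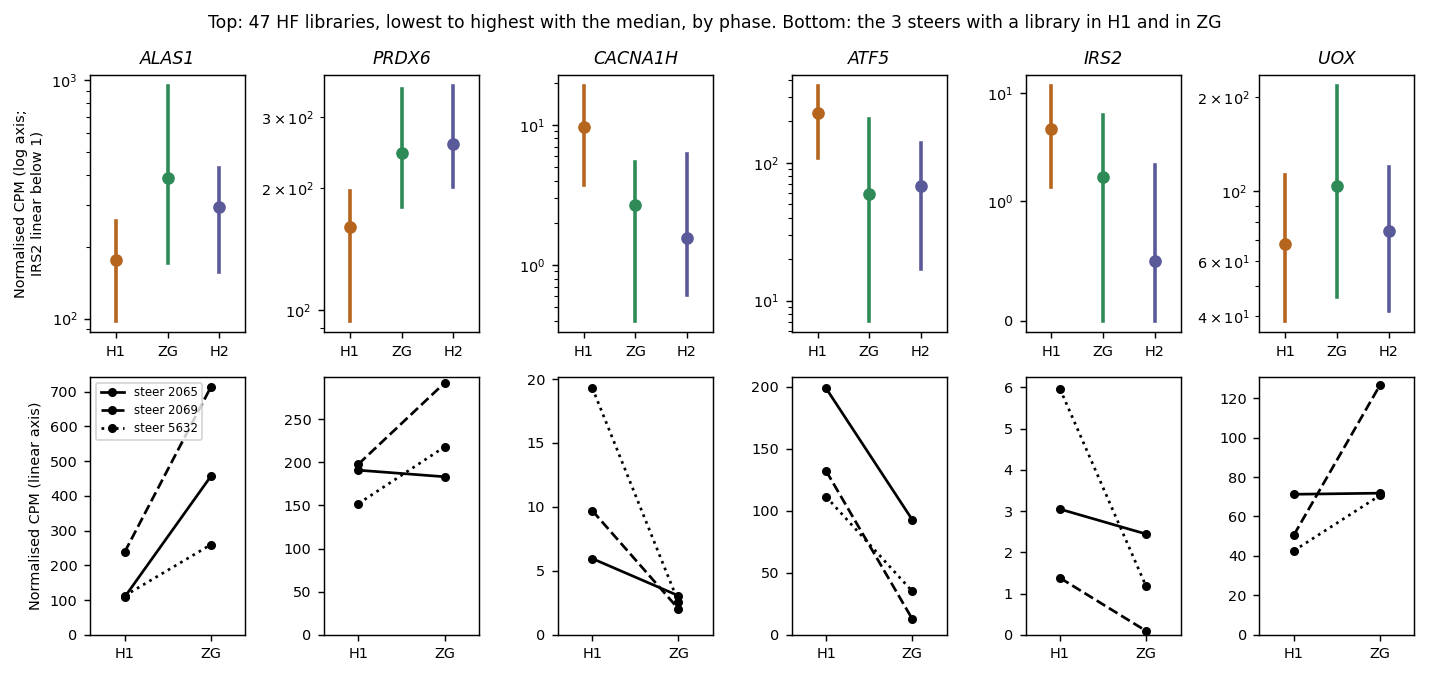
Top, normalised CPM of 6 genes over the 47 HF libraries by phase, with the lowest, median and highest library (log axis, linear below 1 for IRS2, where ZG and H2 reach 0). Bottom, normalised CPM on linear axes in the H1 and ZG libraries of the 3 repeated steers: ALAS1 rises and CACNA1H and ATF5 fall in each, while PRDX6 is at 191 and 183 CPM in steer 2065.

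Whether low and high RFI steers responded alike was tested with the interaction of RFI and diet. No gene passed (0 of 13261, 0%), with 459 genes at an unadjusted p under 0.05 and a smallest edgeR adjusted p of 0.999, and DESeq2 also called 0. When tested apart, 2928 genes passed in low RFI and 4759 in high RFI steers. These counts do not show a difference between the RFI groups, since the test of that difference called no gene. Without the 4 libraries it also called 0, with a smallest edgeR adjusted p of 0.306. An interaction that misses the threshold does not show that low and high RFI steers responded alike.

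The same contrast in CH steers rests on 20 H1 and 6 ZG libraries, and was compared through the interaction of breed and diet in 60 libraries. Some CH steers had a library in both diets, and the edgeR fit held no steer term. No gene passed (0 of 13916, 0%), with 456 at an unadjusted p under 0.05, and DESeq2 called 0. Within CH, 2101 of 13916 genes (15.1%) differed between ZG and H1, and 23 of the 60 named identifiers were among them. In CH, CACNA1H fell by 1.60 (SE 0.32, edgeR adjusted p = 0.0025) and ALAS1 rose by 1.14 (SE 0.21, adjusted p = 0.000933). The difference of the log2 fold changes, CH minus HF, was 0.32 (SE 0.37) for CACNA1H, -0.21 (SE 0.28) for ALAS1 and -0.24 (SE 0.15) for PRDX6. A difference that misses the threshold does not show that the breeds responded alike.

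The H2 libraries of HF steers, 13 in number, give the level of the named genes when the H1 ration was fed again at a later age. A library among them carries an animal number that is labelled CH on H1, and whether it is the same animal is not known. In 1 fit of 47 HF libraries, 8267 of 13472 genes (61.4%) differed between H2 and H1, and 681 (5.05%) between H2 and ZG. Comparisons against H1 share the H1 libraries, so that only the values are set side by side. Some of the H2 steers were also sequenced on H1 or ZG, and the fit held no steer term. Median levels in that fit, in the order H1, ZG and H2, were 9.65, 2.69 and 1.56 CPM for CACNA1H, 160 (H1), 245 (ZG) and 257 (H2) CPM for PRDX6, and 231, 59.4 and 68.1 CPM for ATF5. ALAS1 was at 177, 390 and 294 CPM, and H2 was above H1 by 0.81 (SE 0.18, edgeR adjusted p = 0.000495).

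Median levels of further named genes follow, in the order H1, ZG and H2. UOX was at 67.8, 104 and 74.8 CPM, and H2 differed from H1 by 0.08 (SE 0.19). PPP1R3C was at 252 and 223 CPM on H1 and ZG and at 361 CPM on H2, 0.72 above H1 (SE 0.16, edgeR adjusted p = 0.000411). IRS2 was at 4.68, 1.66 and 0.502 CPM. Of the 60 named identifiers, 47 differed between H2 and H1, against 61.4% of all genes. Since 52 of the 60 were called against the same H1 libraries, this count is not independent of the ZG result.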

How the data were processed

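Liver mRNA was sequenced by the authors as single-end libraries of 50 bp reads. Per the labels and the study's methods, the authors trimmed the reads, aligned them with STAR (2.5.3a in the submitters' processing notes, another version in the study's methods) to bovine genome UMD3.1 and counted them per Ensembl gene, and they deposited raw counts without normalization. The strand setting of the counting is not given in the sources used here, so overlapping and antisense genes may share reads.

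The 34 HF libraries of ZG and H1 were filtered (filterByExpr), scaled by TMM and fitted with edgeR (4.0.16, R 4.3.3) with RFI group and diet. Genes were called at a Benjamini-Hochberg adjusted p under 0.1 over all genes tested. Levels are TMM-normalised CPM. SE is the log2 fold change over the root of F. Interactions and H2 were fitted in the same way. The step was tested on simulated counts in which few genes changed, equally many in each direction. They held no shift of library composition with diet, so the scaling was not tested. DESeq2 (1.42.0) and limma (3.58.1) gave alternatives, as did total count scaling, a first principal component covariate and leaving out the 4 libraries, all 3 chosen after seeing the data.

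In the 34 HF libraries of ZG and H1, replicates are biopsies of separate steers, except 3 steers with a library in each diet. These pairs were taken as the same animal because they share an animal number and the breed label. Their deviations from the group means correlated at 0.268, 0.460 and 0.156, which ranked 1, 3 and 3 among the 18 ZG libraries. Some HF steers of H2 were also sequenced on H1 or ZG, and some CH steers on both H1 and ZG. The edgeR fits held no steer term.

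Names were those the study gives for 328 identifiers, and 1 gene is not reported here. Genes were named by rule: the 10 smallest p in each direction, the 10 largest changes in each direction with a mean of at least 1 CPM, and up to 3 called genes in each direction per functional list (or its most abundant gene where none was called). Of 27 functional lists 22 had a tested member, as had 1 of 12 cell marker lists. Members and lists were chosen with earlier results of these data known. No sequence table was used here, and a planned promoter motif search was not run.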

Additional observations from a re-analysis of the deposited data

Results flagged for a closer look

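In each diet and RFI group, the highest or lowest library was compared with its nearest neighbour by the gap between them as a share of the group's range (Dixon's criterion at 95%), for 4 library measures and for the levels of the named genes on the log2(CPM + 0.5) scale. Of 256 combinations, 25 were set apart in this way, where chance sets apart about 1 in 20 groups. No explanation was tested for any of them.

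The largest total counts were 63621304 in steer 1639 (ZG, high RFI, next 23866335) and 47640205 in steer 2101 (H1, high RFI, next 28589628), and steer 1639 also had the most genes detected, 16855 (next 15407). Steer 5632 had the lowest share of counts in the 20 most counted genes on H1 in low RFI steers, 28.0% (next 31.7%).

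The ZG library of low RFI steer 5635, 1 of the 4 that stood apart, accounted for 6 of the 25. It was lowest for CACNA1H (0.404 CPM, next 1.75) and CCND1 (0.404 CPM, next 2.83) and highest for FGG (33586 CPM, next 16700), GOT2 (616 CPM, next 539), RAB4A (46.1 CPM, next 33.98) and UOX (174 CPM, next 112).

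On ZG in high RFI steers, steer 2272 was highest for SERPINI2 (30.9 CPM, next 0.462) and CHI3L2 (8.11 CPM, next 2.34) and lowest for EPHX1 (789 CPM, next 1256).

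On H1 in high RFI steers, steer 2065 was highest for CIDEC (30.2 CPM, next 2.58), PCBP2 (218 CPM, next 194) and RPL19 (279 CPM, next 215), steer 5624 for DOCK11 (25.8 CPM), steer 2071 for FGA (18331 CPM), steer 2101 for GIMAP8 (90.0 CPM) and steer 2064 for JUN (23.4 CPM). On H1 in low RFI steers, steer 5632 was highest for CHI3L2 (110 CPM, next 3.25), steer 1877 for IFI44 (69.2 CPM, next 18.7) and steer 1656 for MCM2 (9.56 CPM, next 5.31), and the lowest values were 9290 CPM of FGA in steer 2220 and 2.66 CPM of NR0B2 in steer 2095.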

How the results depend on the processing

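The count of 7524 genes stayed within 1.5 times of itself with DESeq2 (7957), size factors (7430), no filter (7944), at least 10 counts per library (5825), an adjusted p under 0.05 (6299), voom weights (6900), no RFI covariate (7467), a depth covariate (7499), a fit of all 12 groups (8089), and without the 3 repeated steers (6017). The steer as a replicate block, with a consensus correlation of 0.365 in limma-voom, gave 8059. It moved to 2928 in low and 4759 in high RFI steers, where fewer libraries were fitted, to 4744 without the 4 libraries and to 2524 with the first principal component as a covariate, for which the cause was not tested. Under that covariate 21 of the 52 named calls were lost with their direction kept, 5 more turned and were lost, and 1682 of the genes called were higher. Breed by diet stayed at 0 genes in each alternative run, which included the block and each CH ZG library left out in turn, and RFI by diet with DESeq2, no filter and without the 4 libraries. Leaving out CH ZG libraries left 379 to 925 genes at an unadjusted p under 0.05, and RFI by diet without the 4 libraries 1002.

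Log2 fold changes that turned sign follow, and the cause was not tested. C5, 0.04 in all libraries, was -0.034 with at least 10 counts, -0.061 with voom weights, -0.019 without repeated steers, -0.070 in high RFI steers, -0.11 without the 4 libraries, -0.30 with total counts and -0.29 with the component covariate. HSPA1A was -0.0023 with DESeq2, -0.0027 with size factors, -0.032 with at least 10 counts, -0.27 with voom weights, -0.67 with the block, -0.029 in low RFI steers and -0.20 with total counts. CIDEC was 0.076 with DESeq2, 0.044 with voom weights and 0.15 in low RFI steers. CHI3L2 was 0.081 without repeated steers and 0.62 in high RFI steers. PPP1R3C was -0.073 in high RFI steers, -0.029 without the 4 libraries and -0.24 with total counts. In high RFI steers APOC3 was -0.10, GSTA4 -0.025 and IFI44 0.19. With total counts APOC3 was -0.038, AHCY -0.026, F5 -0.079 and PSMB2 -0.076. With the component covariate LOC104975755 was 0.29, SARDH 0.22, SLC39A4 0.80 (edgeR adjusted p = 0.0103), FGG -0.019, IL1A -0.093 and IRS2 0.49. The CH minus HF difference of TFDP1, 0.05, was -0.034 without high RFI CH ZG replicate 2 (range -0.034 to 0.14 without each of 6 CH ZG libraries) and -0.085 without the 4 libraries, and that of CST6, 0.58, was -0.019 with the block.

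The block ended the calls of LOC782233 (adjusted p = 0.531) and CHI3L2 (adjusted p = 0.137), added a call of SLC39A4 (-1.05, adjusted p = 0.0244 in limma-voom) and changed no other call of the named genes. Genes at under 1 CPM rest on few reads in the shallowest libraries, and precision there is limited by depth.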
